A study of Mus musculus with 43 samples.

Results

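Mouse colon organoids grown with 8 µM regorafenib (R8) were compared with organoids of the same lines grown with 4 µM (R4), the lower of the sequenced doses. The comparison took the 12 organoid libraries with these doses out of 43 samples in the series, chosen by their treatment label and paired by line, with 3 libraries in each of 4 groups. Colonoids came from adult Vil-cre/ERT2 mice with wild-type Apc (lines M41, M40 and M1), and tumoroids from Vil-cre/ERT2 mice with floxed Apc alleles (lines F11, M3 and M14). All mice had received tamoxifen, so both genotypes carried the Cre transgene, which is driven by the promoter of villin and is therefore active in the intestinal epithelium. Each line came from a single mouse, and the mice were 2 months old. Organoids were treated for 6 days from replating in Matrigel, and vehicle cultures (Ve, 0.5% DMSO) of the same lines were used here for the first dose step. Per the study, this DMSO level matches that of the highest regorafenib dose. Whether cultures at 4 µM held the same level is not stated. In each run of values below, the 3 colonoid lines are given in the order M41, M40 and M1, followed by the tumoroid lines F11, M3 and M14.

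Regorafenib is a multi-kinase inhibitor whose targets include receptors for vascular endothelial and fibroblast growth factors and kinases of the RAF family. RAF kinases lie between growth factor receptors and the kinases MEK and ERK, and active ERK induces immediate early genes such as Egr1 and the Fos and Jun families, which form the AP-1 transcription factor. ERK also induces its own brakes, the dual-specificity phosphatases Dusp5 and Dusp6 and the Sprouty proteins, and in epithelia it acts downstream of the EGF receptor on growth, wound closure and matrix proteases. In the colon epithelium, Wnt signals restrained by Apc maintain the stem cells at the crypt base.

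Values are CP20M, read counts that were scaled to 20000000 per library, so that 20 CP20M are 1 CPM. They are not divided by transcript length, so levels of different genes are not compared. Between 4371813 and 22366345 reads per library, as recovered from the steps between the deposited values, were counted in 11 of the 12 libraries, the highest (M3 at 4 µM) being an estimate. The exception was colonoid line M41 at 4 µM, with 512591 reads, where a single read is worth 39.0 CP20M and a listed 0 allows up to 117 CP20M (3 reads, counting error only). In that library 17.1% of the counts lay on transcripts that resemble ribosomal RNA, against 1.3% to 3.62% in the other 11. The log2 difference between 8 and 4 µM had an SD over genes of 1.28 in line M41, where 4835 of 10807 genes differed by at least 1 log2 unit, and of 0.33 to 0.44 in the other lines, where 162 to 417 genes did. Among the other 5 lines the 8 µM library was the shallower in every line (mean log2 difference in reads -0.78 ± 0.63, SD, exact permutation test over line pairs, two-sided, p = 0.0625, the smallest this design allows), and the part of depth in the results was not tested. Counts are therefore given over all 6 lines and over 5 lines without M41. Each gene said below to have risen or fallen over 6 lines also passed over 5 lines. Each gene said to have done so over 5 lines only did not pass over 6 lines.

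**Figure D1:**
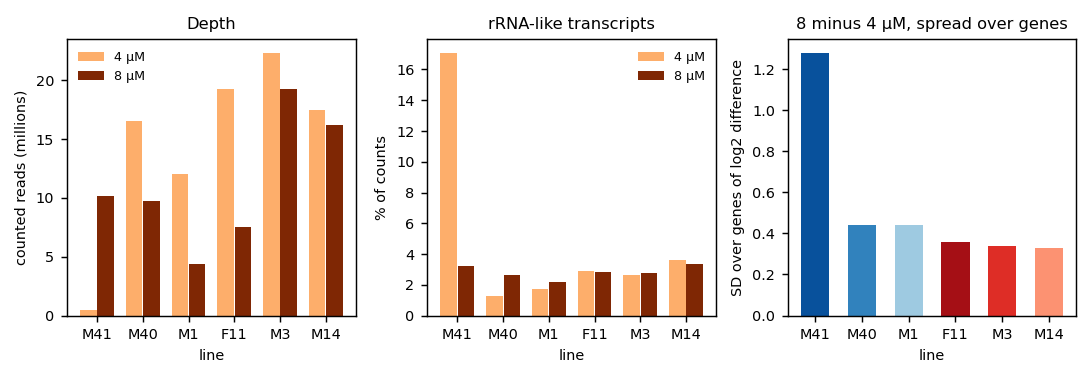
Counted reads (left), percent of counts on transcripts that resemble ribosomal RNA (middle) and SD over genes of the log2 difference between 8 and 4 µM (right) in each of the 6 lines. The M41 library at 4 µM stands apart with 512591 reads and 17.1% of its counts on these transcripts, and line M41 has an SD of 1.28.

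The epithelial markers Epcam, Krt8, Krt18, Krt19, Cdh1, Vil1, Cdx2 and Lgals4 were present in all 12 libraries, with Epcam between 6087 and 16319 CP20M. The fibroblast markers Col1a1, Col1a2, Col3a1, Pdgfra, Pdgfrb, Thy1 and Dcn summed to at most 118 CP20M in any library, and no gene of the fibroblast, endothelial or muscle and glia lists reached the level needed for testing. Apc itself had 3005, 3814, 2523, 5487, 4375 and 4663 CP20M at 4 µM and 4940, 4944, 1542, 6032, 4748 and 5539 at 8 µM. It was no lower in tumoroids than in colonoids, and since only part of the gene is removed by recombination, the gene-level value is no check of the deletion. In bulk organoids, fewer cells of a type and less RNA per cell cannot be told apart.

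Between 4 and 8 µM the genes that fell included a matrix collagenase, the sterol efflux transporters Abca1 and Abcg1 and the ERK phosphatases Dusp5 and Dusp6. The immediate early gene Egr1, the EGF family receptor Erbb3 and Tnfaip3, a brake on NF-κB, fell as well. Those that rose included the lysosomal GTPase Rragd, the stress cytokine Gdf15 and the metabolic enzymes Ass1 and Bdh1. Over 6 lines, 90 of 10807 genes (0.833%) passed an adjusted p under 0.05 with at least a 1.5-fold change, 29 (0.268%) higher and 61 (0.564%) lower at 8 µM. Each of the 29 was higher, and each of the 61 lower, in all 6 lines. The test on these same differences favours such genes, so this adds no support. Without a test, 12.8% of all genes were higher and 6.05% lower in all 6 lines. Over 5 lines, 435 genes (4.03%) passed, 192 (1.78%) higher and 243 (2.25%) lower, and 2195 (20.3%) passed on the adjusted p alone. Of the 90 genes, 89 also passed over the 5 lines in the same direction, with 10 libraries shared between the fits, and of the 435, 335 (77%) had the same sign in line M41, where the median difference over all genes was 0.6, against -0.03 to 0.08 in the other lines. The count over 6 lines was 0 or 1 when any line other than M41 was left out, and 349 to 495 when a further line was left out beside M41. With normalisation factors (TMM) the split over 6 lines was 25 higher and 93 lower, and with no pairing by line 11 genes passed over 6 lines and 81 over 5 lines.

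**Figure D2:**
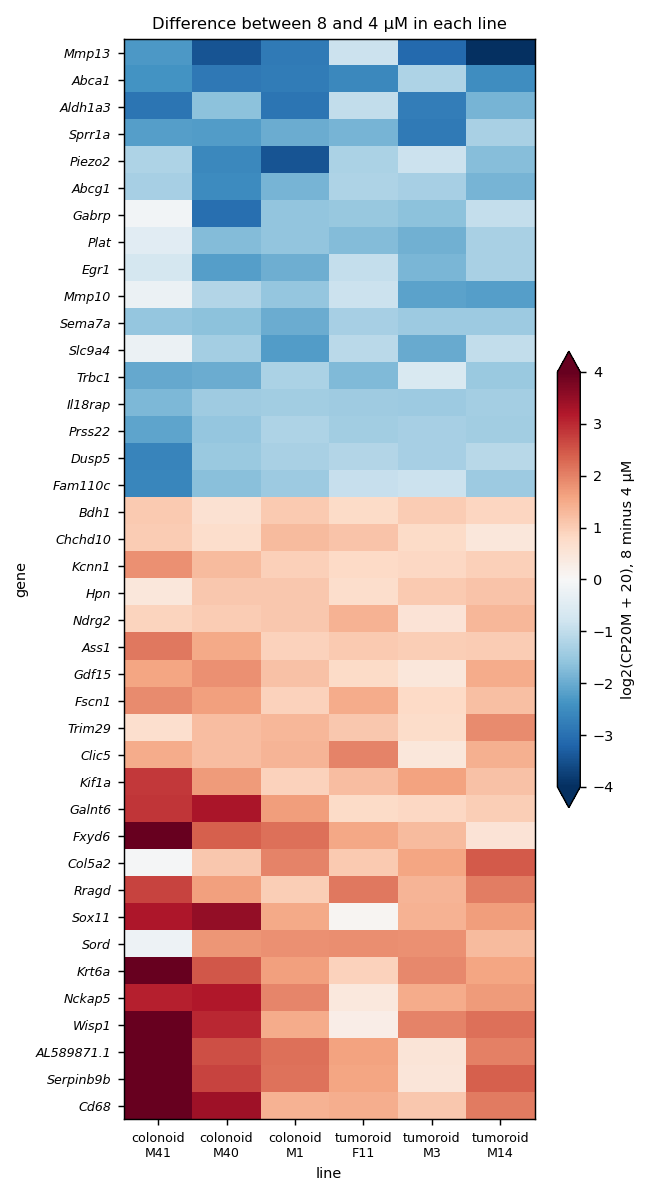
Difference in log2(CP20M + 20) between 8 and 4 µM in each line (columns) for the genes with the largest falls and rises over 6 or 5 lines (rows, ordered by fold change over 5 lines), blue for lower and red for higher at 8 µM. Line M41 is paler than the other lines for Mmp10, Plat, Slc9a4 and Gabrp and darkest for Cd68, Serpinb9b and Krt6a.

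Mmp13 had the largest fall among the genes that passed over 6 and over 5 lines, and other protease genes fell less. Mmp13 (ENSMUSG00000050578, chromosome 9, 7272514 to 7283331, GRCm38), a collagenase, had 118, 339, 158, 16, 195 and 759 CP20M at 4 µM and 8, 13, 5, 0, 5 and 25 at 8 µM. It was lower at 8 µM in each line, and the groups overlapped only through line F11, which was low at both doses. Mmp13 changed by -2.77 log2 units (SE 0.404, adjusted p = 0.0348) over 6 lines and -2.87 ± 0.396 (adjusted p = 0.00221) over 5 lines. The pseudocount holds down the fold of genes near 0, and edgeR on whole reads gave -5 and -5.06 for Mmp13. By edgeR over 5 lines the low genes Sprr1a (-2.77), Il1a (-1.95), Mmp10 (-2.25), Krt20 (-1.65) and Sox11 (2.37) also had larger changes than those given below. Mmp10, a stromelysin that lies near Mmp13 in the same gene cluster, had 157, 303, 95, 27, 160 and 281 CP20M at 4 µM and 131, 123, 19, 6, 21 and 46 at 8 µM, against 2 to 19 in vehicle. It fell over 5 lines (-1.58 ± 0.233, adjusted p = 0.00284) and did not pass over 6 (-1.36, adjusted p = 0.0819), with the smallest difference in line M41. Plat, the tissue plasminogen activator, had 1717, 4536, 2693, 1851, 3717 and 3219 CP20M at 4 µM and 1253, 1341, 883, 544, 960 and 1309 at 8 µM. The dose groups of Plat did not overlap, which held for 0.731% of all genes in this direction over 6 lines and 1.55% in the other. Plat fell by 1.45 on the log2 scale over 6 lines (adjusted p = 0.0284) and by 1.66 over 5 lines (adjusted p = 3.67e-05), to levels near those of vehicle (245 to 1390 CP20M). Prss22, a serine protease of epithelia, had 1026 to 1659 CP20M (median 1266) at 4 µM and 285 to 621 (median 449.5) at 8 µM and fell by 1.5 over 6 lines (adjusted p = 0.0135).

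The promoters of several of these genes hold the letters TGANTCA, the AP-1 motif. Promoters (250 bases before to 50 bases after the RefSeq start site, GRCm38.p6, first listed promoter of each gene) were found for 165 of the 243 genes that fell over 5 lines, and 27 of them (16.4%) hold TGANTCA on either strand, the motif reading the same on both apart from its centre. Among the 144 of the 192 genes that rose that have a promoter in the table, 6 (4.17%) hold it, among 7973 tested genes 378 (4.74%), and among all 27025 promoters 7.93%. The other motifs searched were GGAATG (TEAD, 12.7% of the genes that fell and 11.5% of tested genes), TGATGNA (ATF4, 10.3% and 6.8%), CACGTG (E-box, 12.1% and 10.9%), CTTTGA (TCF/LEF, 8.48% and 11.2%) and TTTGAAA (CHR, 3.03% and 3.91%), with promoters of all genes at 14.6%, 12.3%, 7.24%, 16.2% and 6.55%. These shares are descriptions and were not tested, and a match is not a binding site. The promoters of 4 genes with the motif are shown 5′ to 3′ on the strand of the gene with the AP-1 letters in capitals, because their genes fell and the position of the match differs between them. In Mmp13 (chr9:7272264-7272563, plus strand) the match starts at -35 from the start site, in Mmp10 (chr9:7502092-7502391, plus strand) at -63, in Sprr1a (chr3:92485832-92486131, minus strand) at -146 and -116, and in Il1a (chr2:129309923-129310222, minus strand) at -12.
Mmp13: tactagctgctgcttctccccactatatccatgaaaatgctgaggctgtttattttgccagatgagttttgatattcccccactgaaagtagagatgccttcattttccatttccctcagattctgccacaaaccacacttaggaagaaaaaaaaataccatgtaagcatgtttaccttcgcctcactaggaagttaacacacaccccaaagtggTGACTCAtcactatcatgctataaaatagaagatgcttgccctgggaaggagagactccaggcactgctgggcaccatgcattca
Mmp10: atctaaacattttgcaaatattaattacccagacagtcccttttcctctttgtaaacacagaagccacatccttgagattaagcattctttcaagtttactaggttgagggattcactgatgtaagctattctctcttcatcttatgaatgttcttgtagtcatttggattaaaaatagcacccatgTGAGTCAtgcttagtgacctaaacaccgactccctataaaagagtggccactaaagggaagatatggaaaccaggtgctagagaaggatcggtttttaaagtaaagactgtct
Sprr1a: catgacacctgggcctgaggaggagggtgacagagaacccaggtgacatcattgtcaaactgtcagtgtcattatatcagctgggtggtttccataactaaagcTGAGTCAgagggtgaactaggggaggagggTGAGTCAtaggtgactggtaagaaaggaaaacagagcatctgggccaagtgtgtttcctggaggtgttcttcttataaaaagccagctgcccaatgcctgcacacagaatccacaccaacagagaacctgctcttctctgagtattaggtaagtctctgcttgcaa
Il1a: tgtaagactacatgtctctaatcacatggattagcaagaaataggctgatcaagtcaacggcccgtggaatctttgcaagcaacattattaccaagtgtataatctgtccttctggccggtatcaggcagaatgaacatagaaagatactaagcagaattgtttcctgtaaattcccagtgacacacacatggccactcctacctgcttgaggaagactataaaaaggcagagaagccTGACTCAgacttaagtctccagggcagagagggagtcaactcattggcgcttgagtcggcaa

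Aldh1a3, a retinaldehyde dehydrogenase of retinoic acid synthesis, had 2537, 2442, 2615, 1699, 3531 and 1171 CP20M at 4 µM and 318, 768, 330, 838, 504 and 305 at 8 µM. Its dose groups did not overlap, and it fell by 2.19 on the log2 scale over 6 lines (adjusted p = 0.0267) and by 2.04 over 5 (adjusted p = 0.000964). Sprr1a, a small proline-rich protein of the cornified envelope, had 235, 199, 172, 150, 278 and 97 CP20M at 4 µM and 36, 27, 28, 27, 22 and 28 at 8 µM. All 8 µM libraries were below all 4 µM libraries (log2 fold change over 6 lines -2.06, SE 0.222, adjusted p = 0.0184). Il1a, the cytokine interleukin 1 alpha, had 79, 403, 70, 19, 53 and 305 CP20M at 4 µM and 16, 54, 37, 24, 18 and 58 at 8 µM. It was lower in 5 of 6 lines and passed over 5 lines (-1.2 ± 0.355, adjusted p = 0.0411) but not over 6 (adjusted p = 0.149).

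The sterol efflux transporters Abca1 and Abcg1 fell together. Abca1 (ENSMUSG00000015243, chromosome 4, 53030787 to 53159895), which moves cholesterol to apolipoproteins, had 547, 536, 1090, 824, 1078 and 2030 CP20M at 4 µM and 89, 56, 138, 120, 441 and 343 at 8 µM. All 8 µM libraries lay below all 4 µM libraries, and the fold change in log2 units was -2.4 ± 0.219 (SE, adjusted p = 0.0135) over 6 lines and -2.41 ± 0.206 (adjusted p = 0.00027) over 5. Abcg1 (ENSMUSG00000024030, chromosome 17, 31057675 to 31117988), which hands cholesterol to lipoprotein particles, had 1561, 1554, 2023, 319, 1609 and 2325 CP20M at 4 µM and 608, 256, 545, 125, 624 and 621 at 8 µM. It fell in each line, by 1.69 on the log2 scale over 6 lines (adjusted p = 0.0184), and the dose groups overlapped only through line F11. In vehicle Abca1 had 525 to 1349 and Abcg1 695 to 2387 CP20M. Of 25 tested genes of cholesterol synthesis and transport, these were the only ones that passed over 6 lines, where 0.564% of all genes fell. Over 5 lines 3 fell and 1 rose (2.25% and 1.78% of all genes). The gene that rose was Idi1, an isomerase of the sterol pathway (0.59, adjusted p = 0.025), which missed the fold threshold with TMM factors (0.55) and by edgeR (0.58). The median of the 25 genes was 0 over 5 lines, against 0.02 for all genes tested, and Hmgcs1, an enzyme of cholesterol synthesis, did not pass (0.12).

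Some ERK feedback and immediate early genes fell between 4 and 8 µM. The study reports more phosphorylated Erk protein in organoids with regorafenib than with vehicle. RNA values do not measure ERK activity, and whether these falls follow from lower ERK activity was not tested. Egr1, an immediate early transcription factor, had 157, 1256, 764, 444, 653 and 536 CP20M at 4 µM and 89, 256, 183, 218, 171 and 206 at 8 µM, after 1265 to 4354 in vehicle. Each line was lower at 8 than at 4 µM, and Egr1 fell by 1.49 over 6 lines (SE 0.222, adjusted p = 0.0359) and by 1.65 over 5 (SE 0.167, adjusted p = 0.000492). Dusp5 (ENSMUSG00000034765, chromosome 19, 53529109 to 53542431), the nuclear ERK phosphatase, had 2263, 1656, 1163, 531, 880 and 1103 CP20M at 4 µM and 350, 586, 463, 226, 340 and 503 at 8 µM. It fell by 1.5 over 6 lines (adjusted p = 0.0312) and by 1.27 over 5 lines (adjusted p = 6.52e-05), and only the 4 µM library of F11 lay within the range of the 8 µM libraries. Dusp6 (ENSMUSG00000019960, chromosome 10, 99263231 to 99267489), the cytoplasmic ERK phosphatase, had 3005, 8484, 8114, 6712, 6780 and 5471 CP20M at 4 µM and 1565, 3558, 3948, 3346, 4174 and 3464 at 8 µM, after 4383 to 8427 in vehicle. The fall of Dusp6 was 0.93 over both sets of lines (adjusted p = 0.0185 and 0.000487), and only M41 overlapped. Of 20 tested genes of this list, 3 fell and 0 rose over 6 lines, against 0.564% and 0.268% of all genes, and 7 fell and 0 rose over 5 lines, against 2.25% and 1.78%. The other 4 were Junb (-0.9), Fosl1 (-0.68), Myc (-0.62) and Spry4 (-0.62), and the median of the list was -0.4 over 5 lines. Etv4 (-0.26), Etv5 (0.22) and Spry1 (0.01), also known as ERK targets, did not pass, and Ccnd1, which encodes cyclin D1, had 0.37 with an adjusted p under 0.05 but a fold below the threshold.

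Upstream of ERK, receptors and a ligand of the EGF family were lower. Egfr, the EGF receptor, had 3083, 7843, 5825, 2545, 3311 and 4973 CP20M at 4 µM and 4427, 4340, 2123, 1187, 1473 and 1964 at 8 µM. The M41 library at 8 µM was higher than at 4 µM, while the other 5 lines were lower, so that Egfr fell by 1.18 over 5 lines (SE 0.0887, adjusted p = 0.000174) and had -0.89 with an adjusted p of 0.144 over 6 lines. Erbb3, which lacks strong kinase activity and signals in pairs with other family members, had 3531 to 6030 CP20M at 4 µM and 1932 to 3409 at 8 µM, with no overlap, and fell by 0.74 over 6 lines (adjusted p = 0.022). Hbegf, a ligand of Egfr, fell over 5 lines (-0.67, adjusted p = 0.00237). Among 9 tested genes of the family, 1 fell over 6 lines (0.564% of all genes) and 3 over 5 lines (2.25%), and the ligands Areg (-0.05), Ereg (0) and Tgfa (0.08) did not pass over 5 lines. Errfi1, an inhibitor of Egfr that was picked out after its values were seen, fell over 6 lines (log2 fold change -1.05, adjusted p = 0.0425). Of 8 tested genes for kinases that regorafenib is known to bind, 0 passed over 6 lines and 2 over 5 (1.78% of all genes rose and 2.25% fell), where Epha2 fell (-0.77, adjusted p = 0.00208) and Flt4 rose (0.98, adjusted p = 0.00592), while Fgfr2 (0.09) and Fgfr4 (-0.52) did not pass.

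**Figure D3:**
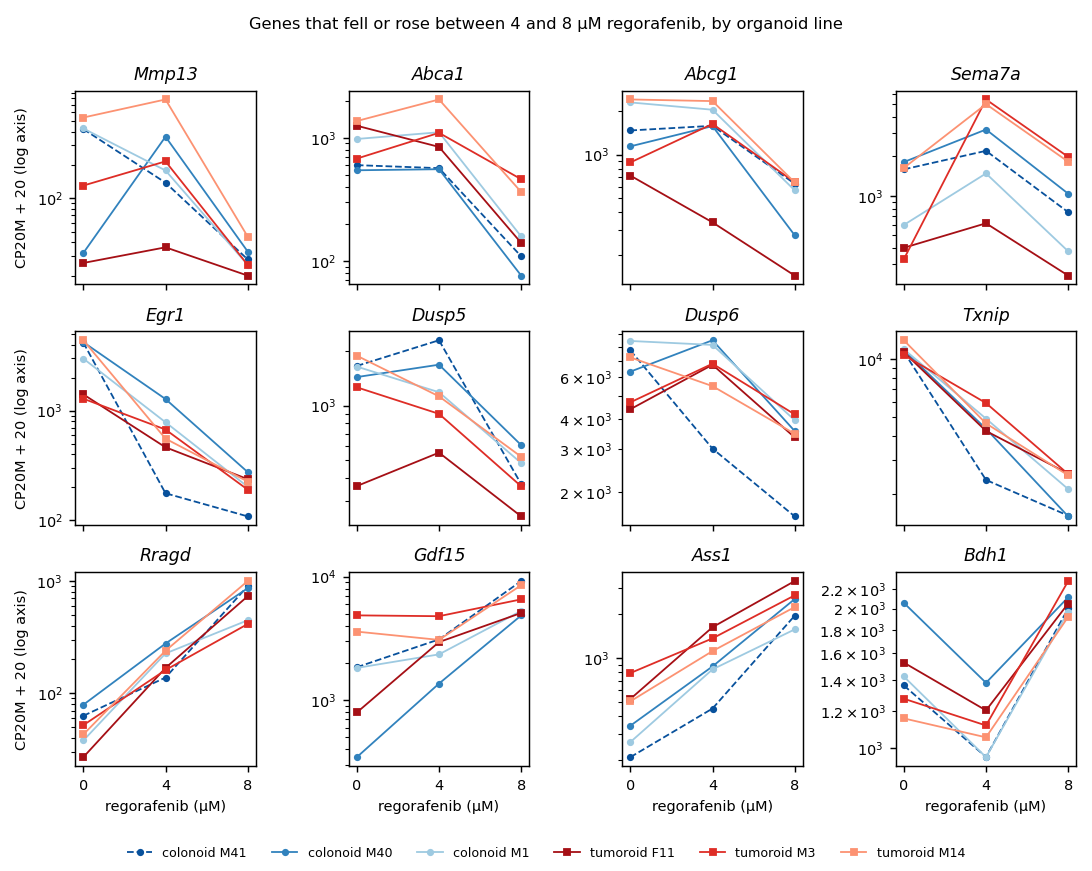
CP20M + 20 on a log axis against the regorafenib dose (0, 4 and 8 µM) for 12 genes, 1 line per organoid line, circles for colonoids, squares for tumoroids and a dashed line for M41. Every line falls between 4 and 8 µM for Mmp13, Abca1, Abcg1, Sema7a, Egr1, Dusp5, Dusp6 and Txnip and rises for Rragd, Gdf15, Ass1 and Bdh1.

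Some cytokine and NF-κB genes fell. Tnfaip3, the A20 protein that limits NF-κB signalling, had 2224, 2122, 2623, 1680, 2593 and 2281 CP20M at 4 µM and 1111, 1120, 911, 745, 1120 and 1305 at 8 µM. No 8 µM library reached the lowest 4 µM library, and the log2 fold change was -1.09 ± 0.115 (SE, adjusted p = 0.0184) over 6 lines. Lif, a cytokine of the interleukin 6 family, fell by 0.68 over 6 lines (adjusted p = 0.0301), with 1430 to 3015 CP20M at 4 µM and 1018 to 1765 at 8 µM. Of 19 tested genes, 2 fell over 6 lines (0.564% of all genes did) and 6 over 5 lines (2.25%), and 0 rose in either, with a median of -0.42 over 5 lines. Beside Tnfaip3, Lif and Il1a, those that fell over 5 lines were Tnf (-0.82), Cxcl5 (-1.09) and Tnfrsf11b (-1.04), the last encoding the decoy receptor osteoprotegerin. Il18rap, a subunit of the interleukin 18 receptor, had 1366, 1870, 1323, 485, 850 and 959 CP20M at 4 µM and 375, 692, 495, 170, 299 and 358 at 8 µM. Its fall was even across lines (-1.47 ± 0.104, adjusted p = 0.00547 over 6 lines), and vehicle had 40 to 751 CP20M. Sema7a, a membrane-anchored semaphorin, had 2185, 3188, 1462, 597, 5420 and 4991 CP20M at 4 µM and 730, 1018, 357, 226, 1963 and 1802 at 8 µM. It showed the same fall over 6 and over 5 lines (-1.57, adjusted p = 0.00547 and 4.94e-05), although its level differed widely between lines. Cd14, a co-receptor for bacterial lipopolysaccharide, fell over 5 lines (-0.82, adjusted p = 0.00366). Trbc1, a constant segment of the T-cell receptor beta chain, fell by 1.54 over 6 lines (adjusted p = 0.0289), while the T-cell marker Cd3e and the pan-leukocyte marker Ptprc had at most 2 and 5 CP20M.

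Junction, wound and fetal-like genes moved in part. Of 11 tested epithelial identity genes, 1 fell over 6 lines (Cldn3) and 2 over 5 lines (Cldn3 and Krt20, -0.99), against 0.564% and 2.25% of all genes. On the adjusted p alone 5 were lower over 5 lines, against 9.7% of all genes, and the median was -0.26. Krt20 was low in tumoroids, with 13, 24 and 41 CP20M at 4 µM and 8, 10 and 14 at 8 µM. In colonoids Krt20 had 625, 2386 and 112 CP20M at 4 µM and 44, 727 and 23 at 8 µM. Of 15 tested tight junction genes, 2 fell over 6 lines and 6 over 5 lines, against 0.564% and 2.25% of all genes, and 0 rose. Cldn3 had 11276, 7785, 6377, 4326, 7739 and 6546 CP20M at 4 µM and 4825, 4479, 4712, 2689, 4512 and 3947 at 8 µM. It was lower at 8 µM in each line (-0.77 ± 0.114, SE, adjusted p = 0.0359 over 6 lines), and Cldn23 fell by 0.95 (adjusted p = 0.0432). Ocln, which encodes occludin, fell over 5 lines (-0.85, adjusted p = 0.00027), as did Marveld2, Cldn2 and Cldn4. Of 11 tested keratin and wound-associated genes, 2 fell over 6 lines (Sprr1a and Hmga2), against 0.564% of all genes, and over 5 lines 5 fell and 1 rose, against 2.25% and 1.78%. Hmga2, a chromatin protein of embryonic tissue, had 937, 3468, 2621, 2300, 3291 and 3677 CP20M at 4 µM and 531, 1472, 774, 1301, 1016 and 1277 at 8 µM. Vehicle had 823 to 1319 CP20M, and the fall of Hmga2 was 1.29 over 6 lines (adjusted p = 0.0249). Ptgs2, the inducible cyclooxygenase, fell over 5 lines (-1.24, adjusted p = 0.000725), and Krt6a, a keratin of wounded epithelium, rose. Krt6a had 79, 413, 173, 59, 102 and 305 CP20M at 4 µM and 1829, 2389, 577, 130, 443 and 948 at 8 µM, and its log2 fold change was 1.71 ± 0.183 (adjusted p = 0.000636) over 5 lines and 2.13 (adjusted p = 0.0609) over 6. Among 23 tested fetal-like genes and YAP targets, 2 fell over 6 lines (0.564% of all genes), namely Sprr1a and Clu, a secreted chaperone that marks regenerating epithelium. In the same list 3 fell and 0 rose over 5 lines (2.25% and 1.78%). Clu had 63949, 84241, 93807, 41270, 35947 and 58850 CP20M at 4 µM and 42222, 55111, 60598, 19405, 21766 and 28516 at 8 µM. Each 8 µM library remained above the vehicle library of its line (9691 to 38189 CP20M), and the fall of Clu was 0.78 (adjusted p = 0.0348).

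Among Wnt targets and stem cell genes no member passed over 6 lines. Over 5 lines 4 of 10 tested Wnt targets and 3 of 16 tested stem cell genes fell, against 2.25% of all genes, and 0 rose in either list, against 1.78%. Lgr5, the R-spondin receptor that marks crypt base stem cells and stands in both lists, had 40, 183, 378, 412, 435 and 1135 CP20M at 4 µM and 70, 148, 133, 114, 374 and 633 at 8 µM. It was lower in the 5 lines other than M41 (-0.87 ± 0.208, SE, adjusted p = 0.0195), and the 4 µM value of M41 is a single read. Sp5 (-0.8), Cd44 (-0.64) and Myc were the other Wnt targets that fell, and the ephrin receptors Ephb3 (-0.69) and Ephb2 (-0.6) the other stem cell genes. Axin2, a direct target of beta-catenin, had 430, 1065, 1851, 4599, 9146 and 6281 CP20M at 4 µM and 1671, 1560, 1725, 4700, 10312 and 6391 at 8 µM, and its difference did not pass (0.13, adjusted p = 0.326 over 5 lines). Rnf43 (-0.07) and Znrf3 (0), which encode Wnt receptor ligases, did not pass either.

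The glucose-responsive gene Txnip, an arrestin that limits glucose uptake, had 2342, 4337, 4898, 4223, 5907 and 4626 CP20M at 4 µM and 1521, 1507, 2096, 2528, 2514 and 2475 at 8 µM, after 10508 to 12548 in vehicle. It was lower with each dose in every line, and between 4 and 8 µM the log2 fold change over 6 lines was -1.03 (SE 0.136, adjusted p = 0.0277). Whether reads were counted by strand is not given in the sources used here, and an annotated gene overlaps exons of Txnip on the opposite strand. The same holds for Bdh1, Chchd10, Cldn3, Hmga2, Il1a, Junb, Fosl1, Krt6a, Ndrg1, Bnip3, Hexa, Itgb4, Slc9a4, Serpinb9b, Sqstm1, Axin2, Bmp6, Fn1, Igfbp7, Thbs1, Gpc1, Gramd1a and Yap1, so the values of all these genes may include reads of the partner. Its paralogue Arrdc4 fell over 5 lines (-0.74, adjusted p = 0.00689). In the list of 23 tested hypoxia and glycolysis genes, 1 fell over 6 lines (0.564% of all genes did), and over 5 lines 3 fell and 1 rose (2.25% and 1.78% of all genes). The third that fell was Ndrg1 (-1.06), and the gene that rose was Bnip3, a mitophagy receptor (0.72), which did not pass by edgeR over 5 lines (0.71, adjusted p = 0.0619).

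Rragd had the largest rise among the genes that passed over 6 lines. Rragd (ENSMUSG00000028278, chromosome 4, 32983037 to 33022180) encodes a Rag GTPase that places the kinase mTORC1 on lysosomes. It had 118, 257, 206, 148, 141 and 219 CP20M at 4 µM and 878, 840, 426, 710, 393 and 976 at 8 µM, after 7 to 59 in vehicle. The groups did not overlap, and the log2 fold change was 1.81 ± 0.226 (SE, adjusted p = 0.0258) over 6 lines, or 3.51-fold, and 1.63 ± 0.161 (adjusted p = 0.000471) over 5. Of 28 tested lysosomal genes, Rragd was the only member that passed over 6 lines (0.268% of all genes rose). Hexa, a subunit of hexosaminidase, rose as well over 5 lines (0.76, adjusted p = 0.00351), where 1.78% of all genes rose. A further 4 members, Atp6v1a (0.48), Neu1 (0.42), Atp6v1h (0.31) and Npc2 (0.29), had an adjusted p under 0.05 at smaller folds, where 10.6% of all genes passed on the adjusted p alone in this direction, and Npc1 had -0.56. The related genes Rragc (0.01), Tfeb (0.11) and Tfe3 (-0.21) did not pass.

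Cd68, a glycoprotein of late endosomes and lysosomes that is used as a macrophage marker, had 40, 61, 69, 116, 464 and 272 CP20M at 4 µM and 2659, 821, 211, 350, 997 and 1219 at 8 µM. It was higher at 8 µM in each line, by 1.87 ± 0.279 (SE, adjusted p = 0.00292) over 5 lines and 2.47 ± 0.568 (adjusted p = 0.0959) over 6. The immune markers Ptprc, Cd3e, Cd79a, Csf1r and Adgre1 summed to 431 to 587 CP20M at 4 µM and 390 to 630 at 8 µM. Nearly all of it was Csf1r (380 to 625). Ptprc, Cd3e and Cd79a had at most 9 CP20M in any library and Adgre1 at most 40, which is 1 read in M41. In a longer immune list with 3 tested genes, Cd68 rose and Cd14 fell (-0.82) over 5 lines, where 1.78% and 2.25% of all genes did.

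Stress and amino acid genes rose in part. Gdf15, a cytokine induced by several stress pathways, had 3083, 1341, 2327, 2932, 4763 and 3055 CP20M at 4 µM and 9192, 4831, 5261, 5060, 6528 and 8507 at 8 µM. Each 8 µM library exceeded every 4 µM library, and the log2 fold change was 1.21 ± 0.188 (SE, adjusted p = 0.0382) over 6 lines. Of 27 tested ATF4 and stress response genes, 1 passed over 6 lines, where 0.268% of all genes rose. Over 5 lines 4 rose (Gdf15, Cth, Mthfd2 and Phgdh) and 2 fell (Atf3 and Slc7a11), against 1.78% and 2.25% of all genes. Cth had 105 to 1693 CP20M in vehicle, 0 to 413 at 4 µM and 238 to 527 at 8 µM. From vehicle to 4 µM its log2 fold change was -1.27 over 5 lines (adjusted p = 0.0173). Over 5 lines Mthfd2 and Phgdh did not pass with TMM factors (0.6, adjusted p = 0.0507, and 0.55) or by edgeR (0.63, adjusted p = 0.0529, and 0.58). The genes that rose beside Gdf15 encode enzymes of cysteine, folate and serine metabolism, with log2 fold changes of 1.05, 0.64 and 0.6, while Atf3, an immediate early factor, had -1 and the cystine carrier Slc7a11 -0.61. Atf4 (-0.2), Ddit3 (-0.24), Trib3 (-0.08) and Asns (0.28) did not pass, and the median of the list was -0.01. Of 17 tested p53 targets only Gdf15 passed, over 6 and over 5 lines, where 0.268% and 1.78% of all genes rose. Cdkn1a (0.01) and Mdm2 (0.03) did not pass. The NRF2 target Nqo1, a quinone reductase, rose over 5 lines (1.04, adjusted p = 0.00949), as 1 of 19 tested members, of which Slc7a11 fell (1.78% of all genes rose and 2.25% fell). On the adjusted p alone 6 of the 19 were higher, against 10.6% of all genes.

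The metabolic enzymes Ass1 and Bdh1 rose in all 6 lines. Ass1 (ENSMUSG00000076441, chromosome 2, 31470207 to 31520672), the argininosuccinate synthase of arginine synthesis, had 430, 854, 814, 1602, 1340 and 1093 CP20M at 4 µM and 1924, 2508, 1547, 3338, 2660 and 2207 at 8 µM. The rise was 1.26 ± 0.175 (SE, adjusted p = 0.0312) over 6 lines, and vehicle had 189 to 767 CP20M. Bdh1 (ENSMUSG00000046598, chromosome 16, 31422280 to 31458901), which interconverts ketone bodies, had 937, 1363, 936, 1186, 1099 and 1035 CP20M at 4 µM and 1981, 2095, 1949, 2030, 2272 and 1899 at 8 µM. No 4 µM library reached an 8 µM library, the rise was 0.9 ± 0.1 (adjusted p = 0.0185), and vehicle (1139 to 2037) lay between or beside them. Chchd10, a protein of the mitochondrial intermembrane space, rose by 0.89 (adjusted p = 0.0374) from 266 to 563 CP20M to 644 to 972, without overlap. Ndrg2 rose by 1.04 (adjusted p = 0.0267), from 175 to 831 to 488 to 1309 CP20M. Sord, sorbitol dehydrogenase, rose by 1.7 over 5 lines (adjusted p = 0.000122), from 108 to 168 CP20M in these lines to 365 to 644, and M41 differed, with 586 at 4 µM and 513 at 8 µM. Of 27 nuclear genes of oxidative phosphorylation, 0 passed in either set of lines, but 25 had a positive log2 fold change over 5 lines, 11 of them with an adjusted p under 0.05 (10.6% of all genes in this direction), and the median was 0.24 with a highest value of 0.37 for Cyc1, against 0.02 for all genes.

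**Figure D4:**
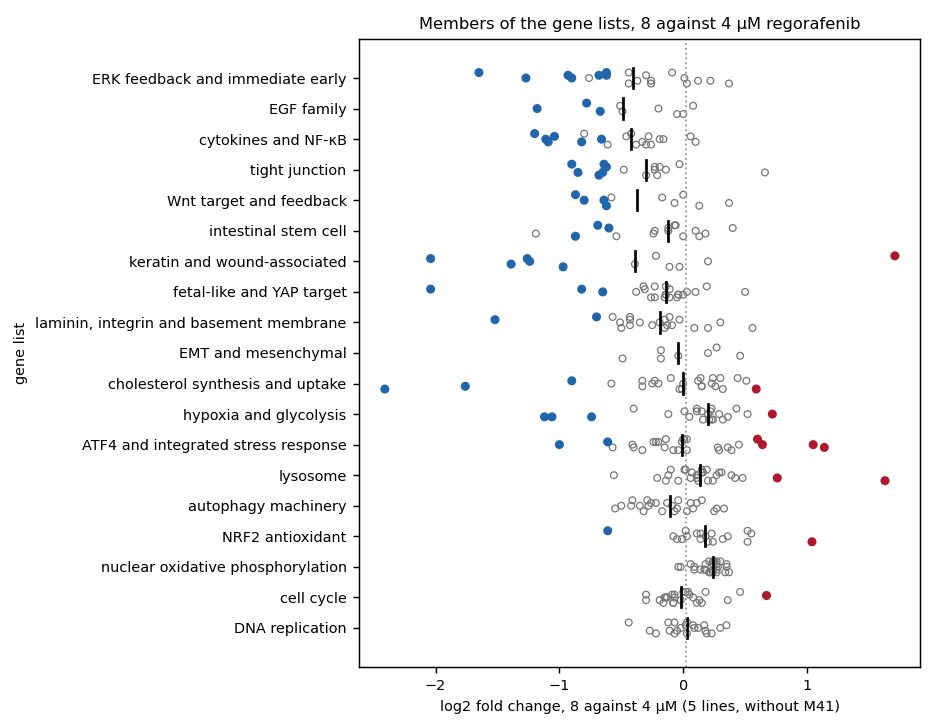
Log2 fold change between 8 and 4 µM over 5 lines for the tested members of 19 gene lists. Filled points passed the test (blue lower, red higher at 8 µM), open points did not, black bars are list medians and the dotted line is the median of all genes (0.02). The medians are -0.4 for ERK feedback genes, -0.49 for the EGF family and 0.24 for oxidative phosphorylation.

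Other genes with large rises differed more between lines. Serpinb9b, a serpin of the granzyme inhibitor family, had 157, 808, 668, 1154, 943 and 426 CP20M at 4 µM and 7962, 5329, 3056, 3481, 1315 and 2319 at 8 µM. It rose in each line, by 1.86 ± 0.26 over 5 lines (SE, adjusted p = 0.0023), with the largest step in M41 and the smallest in M3, and the overlapping antisense gene AL589871.1 rose with it (1.79). The matricellular gene Wisp1 had 40, 88, 170, 175, 27 and 11 CP20M at 4 µM and 1160, 860, 508, 212, 164 and 121 at 8 µM, and rose by 1.78 over 5 lines (adjusted p = 0.00624). Sox11, a transcription factor of embryonic tissue, rose to 912 and 1022 CP20M in colonoid lines M41 and M40 and to 40 to 220 in the other lines (1.63 over 5 lines, adjusted p = 0.0188). Kif1a, a kinesin of vesicle transport, had 274, 826, 354, 733, 97 and 1979 CP20M at 4 µM and 2089, 2713, 687, 1754, 339 and 4479 at 8 µM. It rose by 1.58 over 6 lines (adjusted p = 0.0374), as did Fscn1, which bundles actin (1.32, adjusted p = 0.0284), Clic5 (1.33), Trim29 (1.16, not passing with TMM factors, adjusted p = 0.0514), Kcnn1, a calcium-gated potassium channel (1.1), and Hpn, the serine protease hepsin (0.92).

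In other gene groups few or no members passed. Of 25 tested cell cycle genes only Ccne1, cyclin E1, passed over 5 lines (0.67, adjusted p = 0.0199), where 1.78% of all genes rose. Mki67 (-0.3) and Top2a (-0.15) did not pass. Mki67 had 274, 965, 725, 2896, 1177 and 1680 CP20M at 4 µM and 287, 543, 485, 1473, 2533 and 1410 at 8 µM, lower in 4 lines and higher in M41 and M3. Of 21 DNA replication genes 0 passed, and of 7 tested mesenchymal genes 0 passed, in either set of lines. Of 21 laminin, integrin and basement membrane genes 0 passed over 6 lines and 2 fell over 5 (2.25% of all genes), Itga2 and Itgb4. On the adjusted p alone 7 were lower (9.7% of all genes). Itga2, a collagen receptor subunit, had 2342, 10431, 9047, 2597, 6757 and 7682 CP20M at 4 µM and 2693, 5138, 2512, 936, 2157 and 2473 at 8 µM, and fell by 1.52 over 5 lines (adjusted p = 0.00013). Among 24 autophagy genes 0 passed in either set, 8 were lower with an adjusted p under 0.05 over 5 lines (9.7% of all genes), among them Sqstm1 (-0.5) and Map1lc3b (-0.41), and 1, Uvrag (0.33), was higher. Gramd1a, a sterol transfer protein that the study examined, had 508, 525, 1226, 741, 1094 and 2442 CP20M at 4 µM and 1174, 656, 938, 652, 1222 and 1928 at 8 µM, with no difference that passed (-0.09, adjusted p = 0.607 over 5 lines). Genes that the study names in organoids, 20 of 26 tested, had 0 calls over 6 lines and 2 falls over 5 lines, Myc and Tnfrsf11b. Of all genes 0.833% passed over 6 lines and 2.25% fell over 5 lines. These calls are no independent evidence, since the study chose the genes on these libraries. The rest of that list ranged over 5 lines from -0.8 for Cxcl1 to 0.4 for Tiam1, with Spp1 at -0.5, Fn1 at -0.18, Thbs1 at -0.08, Yap1 at 0.03, Bmp1 at 0.28 and Gpc1 at 0.38.

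Within genotypes the test over 6 lines called 0 genes in colonoids and 0 in tumoroids by limma, with 1593 and 537 genes at an unadjusted p under 0.05 and 6 and 2 genes called by edgeR. Without M41, 301 genes (2.79%) passed in the 2 remaining colonoid lines, 116 (1.07%) higher and 185 (1.71%) lower, and 253 (2.34%) in the 3 tumoroid lines, 80 (0.74%) higher and 173 (1.6%) lower. Both genotypes were in the same fit with a shared spread, so the colonoid calls rest in part on the spread of the tumoroid lines. The difference between genotypes passed for 0 genes over 6 lines (109 at an unadjusted p under 0.05, and 0 by edgeR) and for 0 over 5 lines (455 unadjusted), so the change was not shown to differ between colonoids and tumoroids for any gene. The lowest unadjusted p in both sets was that of Fos, which over 5 lines had a log2 fold change of -1.72 in colonoids and -0.12 in tumoroids.

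The step from 4 to 8 µM was then compared with the step from vehicle to 4 µM, as the log2 change of the second step minus that of the first in the same lines. Both steps use the same 4 µM libraries, so a high 4 µM value by itself raises the first step and lowers the second. A gene that rose with the first dose has a negative contrast unless it rises by as much again. Over 6 lines 799 of 11320 genes (7.06%) passed, 454 (4.01%) with a higher and 345 (3.05%) with a lower second step, and over 5 lines 1796 (15.9%), 884 and 912. With TMM factors the split over 6 lines was 222 and 470, and the median of all genes moved from 0.245 to 0.059. Several matrix genes rose with the first dose and showed no further rise that passed. Fn1, fibronectin, had 8367, 13095, 3683, 935, 1430 and 2802 CP20M in vehicle, 56341, 93302, 102867, 36033, 55721 and 157849 at 4 µM and 224457, 165618, 52413, 22870, 66208 and 121856 at 8 µM. Between 4 and 8 µM Fn1 was higher in M41, M40 and M3 and lower in M1, F11 and M14, and the contrast of steps was -4.27 over 6 lines (adjusted p = 0.00313) and -4.97 over 5 (adjusted p = 0.000398). Lamb1, the laminin beta 1 chain, had 98, 111, 30, 10, 34 and 40 CP20M in vehicle, 1873, 2018, 1509, 1101, 718 and 2278 at 4 µM and 3717, 3061, 691, 554, 549 and 1469 at 8 µM, with a contrast of -4.77 (adjusted p = 0.000282). Over 5 lines the second step was lower than the first for 14 of 21 laminin, integrin and basement membrane genes, 11 of 20 matricellular genes and 6 of 8 mesenchymal genes, and higher for 0 in each, against 8.06% and 7.81% of all genes. Igfbp7 (-4.39 over 6 lines), the bone morphogenetic protein Bmp6 (-4.56) and Spp1, osteopontin (-3.3), also had lower second steps, after rises of 3.56, 3.39 and 3.26 with the first dose over 5 lines, where 16.9% of all genes passed, 8.84% higher and 8.05% lower. Bmp6 fell between 4 and 8 µM over 5 lines (-0.86, adjusted p = 0.0347) and did not pass over 6 (-1.12, adjusted p = 0.156) or by edgeR over 5 lines (-0.8, adjusted p = 0.0522).

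**Figure D5:**
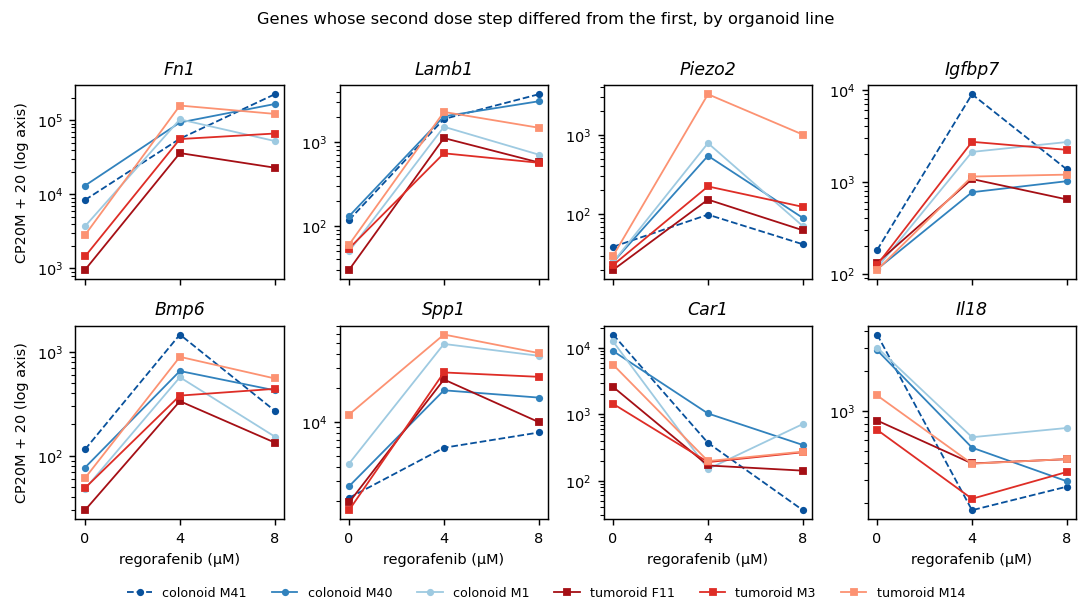
CP20M + 20 on a log axis against dose for 8 genes whose second dose step differed from the first over 6 and over 5 lines, 1 line per organoid line. Fn1, Lamb1, Igfbp7, Bmp6 and Spp1 climb between vehicle and 4 µM and change by less between 4 and 8 µM, Bmp6 being lower at 8 µM in 5 of 6 lines, Piezo2 climbs and then falls in all 6 lines, and Car1 and Il18 fall at 4 µM and change less afterwards.

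Piezo2 rose with the first dose and fell with the second. Piezo2, a mechanically gated ion channel, had 19, 5, 5, 0, 3 and 10 CP20M in vehicle, 79, 523, 764, 133, 204 and 3206 at 4 µM and 22, 70, 51, 43, 104 and 983 at 8 µM. It was lower at 8 than at 4 µM in each line and above vehicle in each line, with a contrast of steps of -5.81 (adjusted p = 0.00444) over 6 lines. Its fall between 4 and 8 µM passed over 5 lines (-1.98, adjusted p = 0.00424) and not over 6 (-1.85, adjusted p = 0.0627). Among genes with a higher second step, the colonocyte carbonic anhydrase Car1 had 1422 to 15957 CP20M in vehicle, 130 to 1012 at 4 µM and 16 to 696 at 8 µM (4.11, adjusted p = 0.046). Car1 fell further in M41, M40 and F11 and recovered in part in M1, M3 and M14, and its 8 against 4 µM difference did not pass (0.28, adjusted p = 0.665 over 5 lines). Il18 likewise had 699 to 3770 CP20M in vehicle, 157 to 612 at 4 µM and 247 to 723 at 8 µM, with a contrast of 2.42 over 6 lines. Egr1 and Txnip fell at both steps, and their contrasts of 0.8 (adjusted p = 0.423) and 0.36 (adjusted p = 0.381) over 6 lines did not pass.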

How the data were processed

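RNA was sequenced from organoids, and per the study's methods reads were trimmed (Trimmomatic 0.36), aligned to GRCm38 (STAR 2.5.3a) and counted per gene with Ensembl 90 (HTSeq 0.9.1), versions being in the submitters' processing notes. The deposited values are a signal unit, CP20M, which the authors made by scaling counts to 20000000 per library and rounding up. Whole reads were recovered from the steps between values for depth and for edgeR, and between 99.79% and 99.94% of values were whole within rounding. In line M3 at 4 µM and in vehicle a read is worth less than 1 CP20M, so reads there were estimated from the spacing of values and this share was not available. On these reads edgeR called 299 genes over 6 lines and 485 over 5. The strand setting of the counting is not given in the sources used here. For organoids the study's methods name a directional kit (NEBNext Ultra II), while the sample labels name a different kit.

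Genes with at least 200 CP20M in 2 or more of the 12 libraries were tested with limma 3.58.1 (R 4.3.3) on log2(CP20M + 20), which understates changes of low genes, with line as a block and Benjamini-Hochberg adjustment. Adjusted p-values are from limma over all genes tested, except where edgeR is named. A call needed at least a 1.5-fold change and an adjusted p below 0.05, and the genotype difference the adjusted p alone. Genes "passed" on this rule. Lines pair the libraries because both doses came from the same mouse, and deviations correlated within lines at 0.02 in M41, 0.1 in M1 and 0.54 to 0.89 in the other 4. Alternatives were edgeR 4.0.16, TMM factors, other pseudocounts and filters, array weights, no block and libraries left out. Statistics were tested on simulated data.

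The lines and gene lists were chosen with earlier results of these data known. Named genes were the 12 largest rises and falls of each fit with 1 direction in all lines, up to 6 passing members of each list (or the 2 most abundant where fewer than 2 passed), the study's genes, the 4 highest and 4 lowest step contrasts, and Apc. Some members of the lists are not reported here. Members of lists named beyond these were chosen after their values were seen. Positions are from GENCODE M21 (GRCm38).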

Additional observations from a re-analysis of the deposited data

Results flagged for a closer look

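The library of colonoid line M41 at 4 µM stood apart from the other 5 libraries at 4 µM in 3 measures. It held 15534 genes with reads (22207 to 24352 in the others), 17.1% of its counts lay on transcripts that resemble ribosomal RNA, and its 10 most abundant genes took 23.9% of the counts. Each gap to the nearest library exceeded the 95% critical value of Dixon's test for 6 samples, and chance alone flags about 1 in 20 groups. Results are given with and without this line.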

How the results depend on the processing

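Over 6 lines 90 genes were called, and the total called under other settings was 11 with no replicate block, 16 with no filter on low values, 299 by edgeR, 175 with all 18 organoid libraries in the fit and 500 with array weights, and leaving out single lines gave 0 to 435. Without M41 (435 genes) the fit with no replicate block called 81, and leaving out a further line gave 349 to 495, both chosen after seeing the data. In colonoids (0 genes) edgeR called 6, array weights 1 and removal of ribosomal RNA-like and mitochondrial transcripts 1, with 0 to 301 on leaving out lines. In tumoroids (0 genes) edgeR called 2 and array weights 567, with 0 to 253. For the dose steps (799 genes) no replicate block gave 216, no filter 363 and array weights 2833, with 134 to 1796. No call was made for the genotype difference under any setting run. Among genes that passed in neither fit, the sign turned with array weights for Car1 (0.4), Fn1 (-0.27), Gramd1a (-0.19), Thbs1 (-0.11) and Plce1 (0.07), and with edgeR for Car1 (0.03) and Gramd1a (-0.04). With M41 left out, edgeR, TMM factors, no replicate block, a pseudocount of 100 and removal of ribosomal RNA-like and mitochondrial transcripts gave, in that order, 0.25, 0.24, 0.29, 0.19 and 0.28 for Car1, -0.2, -0.23, -0.17, -0.18 and -0.18 for Fn1, -0.1, -0.13, -0.08, -0.08 and -0.08 for Gramd1a and 0.09, 0.06, 0.13, 0.09 and 0.11 for Plce1, while Thbs1 had -0.13, -0.13, -0.08 and -0.08 under those other than no block. Also with M41 left out, no replicate block gave 0.03 for Igfbp7 and 0 for Il18, and TMM factors gave -0.01 each for Apc and Yap1. Leaving out lines gave ranges of -0.05 to 0.32 for Apc, -0.85 to 0.74 for Car1, -0.44 to 0.41 for Fn1, -0.18 to 0.23 for Gramd1a, -0.66 to 0.13 for Igfbp7, -0.1 to 0.35 for Il18, -0.16 to 0.15 for Plce1, -0.61 to 0.9 for Thbs1 and -0.37 to 0.04 for Top2a. The cause was not tested. Depth limits low genes most in M41 at 4 µM.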
